A study of Mus musculus with 4 samples.

Results

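DCT_CNT was the name given to 1 of 23 clusters of nuclei from mouse kidney cortex, a name that joins the distal convoluted tubule (DCT) and the connecting tubule (CNT). Among 10 clusters, numbered 13 to 22, it was the one with the highest mean level of Slc12a3, the thiazide-sensitive sodium chloride cotransporter that defines the DCT. Its mean over the 4 mice was 49.6 counts per 10000, and the next cluster by the same rule, type A intercalated cells (IC-A), had 7.70. The cluster was thus chosen by its Slc12a3 level, which is a description here and supports nothing. The table numbers the clusters, and their names follow the sheet order of the study's marker workbook.

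The data are single-nucleus RNA profiles of 4 male mice of mixed strain, 1 mouse per group. Control mice carried the TRE-hKLF6 transgene alone, which stays silent without a transactivator, and hKLF6OE mice carried CAG-rtTA,TRE-hKLF6, in which doxycycline turns on human KLF6 in all cell types through the global CAG promoter. Per the study's methods, both genotypes were fed doxycycline before the injection. In each genotype 1 mouse was given AAI, aristolochic acid I, about a day before the kidney was taken. AAI is a plant toxin that enters proximal tubule (PT) cells and forms DNA adducts. The other mouse of each genotype was given no AAI and is called untreated below. The study's methods give DMSO alone as the control injection, but do not say whether these mice received it. The groups are called control, control + AAI, hKLF6OE and hKLF6OE + AAI, and per-mouse values are given in this order. Each value is the mean, over the nuclei of 1 cluster in 1 mouse, of counts scaled to 10000 per nucleus. Neither the number of nuclei nor the counts behind a value are in the table, so counting error is unknown, and with 1 mouse per group no test was made. SDs below are over the 4 mice (n = 4), which differ in genotype and treatment.

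The DCT follows the thick ascending limb and reabsorbs sodium chloride through Slc12a3, under control of the WNK kinases, and magnesium through Trpm6. The CNT comes next, where Slc8a1, the basolateral sodium-calcium exchanger, the calcium channel Trpv5 and calbindin (Calb1) reabsorb calcium and the epithelial sodium channel ENaC reabsorbs sodium. The PT lies upstream of both, takes back most filtered solute and protein through carriers and the endocytic receptors Lrp2 and Cubn, and shares few defining genes with the distal segments. Slc12a3 lies on mouse chromosome 8 (GRCm38, 94329201 to 94366214, plus strand) and Slc8a1 on chromosome 17 (81373105 to 81738377, minus strand). The values are not per length, so levels are compared between clusters and not between genes.

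Both markers behind the name were present in DCT_CNT at a fraction of their levels in the named segments. Slc12a3 stood at 50.8, 52.6, 53.1 and 42.1 counts per 10000 in DCT_CNT, against 176, 162, 177 and 154 in the DCT cluster. The DCT_CNT level was 27.4 to 32.4% of the DCT level of the same mouse. In the CNT cluster Slc12a3 stood at 8.33 to 14.4, and in the mean of the 5 normal PT clusters at 0.98 to 1.28. Slc8a1 stood at 102, 82.5, 93.7 and 144 in DCT_CNT, below the DCT (157 to 206) and the CNT (223 to 412) in every mouse. In PT it was 0.73 to 1.90.

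Trpm6, Egf and Klhl3 were also below their DCT level in every mouse. Kcnj16, a channel subunit on the same DCT list, was not, at 87.3 to 123% of DCT. Trpm6, the magnesium channel, was at 6.82, 6.32, 4.40 and 7.39 in DCT_CNT and at 15.4 to 21.6 in DCT. Egf, the growth factor that also regulates magnesium uptake, was at 17.9, 19.8, 18.01 and 11.8, against 32.4 to 67.2 in DCT, and was lowest in the hKLF6OE + AAI mouse in both clusters. Klhl3, a ubiquitin ligase adaptor that degrades WNK kinases, was at 6.22 to 9.54 against 18.3 to 29.6. Pvalb, parvalbumin of the early DCT, was low in both, at 0.05 to 0.26 in DCT_CNT and 0.21 to 1.25 in DCT. Of the CNT genes, Calb1 was at 5.90, 4.18, 6.81 and 6.42 in DCT_CNT and 8.65 to 17.6 in CNT. Scnn1g, the gamma subunit of ENaC, was at 1.02, 0.81, 0.82 and 1.02, which was 13.9 to 21.1% of the CNT level. Trpv5 was at 0.15 to 0.45 in DCT_CNT and 1.29 to 1.72 in CNT.

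The cluster also held a proximal tubule program that its name does not mention. Lrp2 (megalin) was at 13.6, 11.8, 10.6 and 9.60 counts per 10000, against 1.90 to 2.81 in DCT, 1.98 to 2.83 in CNT and 14.4 to 21.7 in PT. Slc5a12, a sodium-coupled lactate carrier, was at 12.2, 16.6, 12.1 and 16.6, against 2.12 to 2.30 in DCT, 2.41 to 2.68 in CNT and 19.5 to 28.3 in PT. Ghr, the growth hormone receptor, was at 48.3, 74.8, 43.9 and 50.5, against 7.71 to 10.8 in DCT, 8.21 to 10.6 in CNT and 68.4 to 123 in PT. For all 3 genes, each DCT_CNT value lay above every DCT and CNT value and below the PT value of its own mouse. The 10 genes with the highest mean level in DCT_CNT were Malat1, Slc8a1, Zbtb20, Ghr, Slc12a3, Pde4d, Esrrg, Keg1, Kap and mt-Co3, so that PT and distal genes stood side by side among them. The label is therefore kept only as a name: by these markers the cluster carried DCT, CNT and PT transcripts together.

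**Figure D1:**
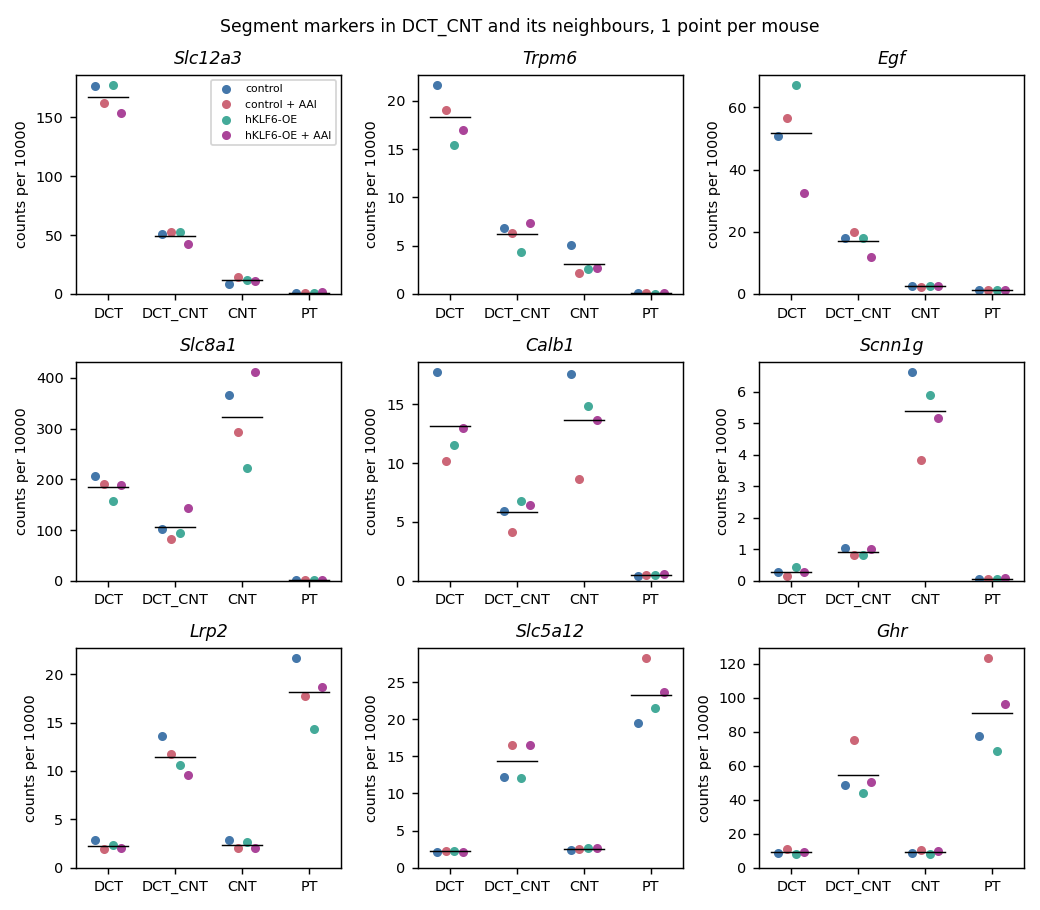
Level of 9 segment markers (vertical axes, counts per 10000, linear from 0) in the clusters DCT, DCT_CNT, CNT and PT (mean of 5 normal PT clusters), with 1 point per mouse and a line at the mean of the 4 mice. DCT_CNT lies below DCT for Slc12a3, Trpm6 and Egf, below CNT for Slc8a1, Calb1 and Scnn1g, and between the distal clusters and PT for Lrp2, Slc5a12 and Ghr.

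Markers of other cell types were low. Summed over each list, the 13 intercalated cell markers reached 1.82 to 2.45 counts per 10000, the 9 principal cell markers 3.24 to 5.49 and the 8 descending limb markers 1.17 to 1.87. The 11 endothelial markers summed to 1.35 to 2.32, the 9 mesangial and stromal markers to 0.29 to 0.44 and the 11 macrophage and immune markers to 0.41 to 0.66. The 10 thick ascending limb markers summed to 9.11 to 13.6, of which Umod, uromodulin, gave 3.37 to 6.37, compared with 3.29 to 4.71 in PT. The 9 podocyte markers summed to 11.5 to 15.1, with 1 of them at a mean of 0.5 or more. For comparison, in DCT_CNT the 43 PT markers summed to 374, 346, 334 and 278, and the 16 DCT markers to 109, 112, 109 and 92.9. Of the DCT sums, Slc12a3, by which the cluster was chosen, gave 50.8, 52.6, 53.1 and 42.1. The 14 CNT markers, Slc8a1 among them, summed to 156, 136, 157 and 202.

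Against DCT of the same mouse, differences were taken on the log2(value + 1) scale among genes with a mean of at least 0.5 in either cluster, and a gene was counted when it differed by at least 1 the same way in all 4 mice. Of 4286 genes, 114 (2.66%) were higher in DCT_CNT and 15 (0.35%) were lower. Without the hKLF6OE mouse the lower count was 24. The clusters were built from these values, so the counts are a description. The genes higher by most were Dab2, the endocytic adaptor that works with megalin (log2 difference 2.68 to 3.01 over the mice), Ghr (2.31 to 2.68), Nfia, Pitpnc1, Keg1, Gramd1b, Hnf4aos, Frmd4b, Nhs and Slc5a12 (2.03 to 2.50). Of 42 PT markers that passed the minimum, 18 were among the higher genes and 0 among the lower, and their median difference was 0.92, against 0.01 over all genes. All 114 genes had a higher mean in PT than in DCT, and all 114 were below PT in all 4 mice.

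The 15 lower genes were led by DCT genes. After Slc12a3 (-1.61 to -1.84) came Prkd1, a protein kinase D (-1.48 to -1.63), Abca13, Egf, Cadps2, Erbb4, a receptor of the epidermal growth factor family, Klhl3, Slc16a7, Sfrp1, a secreted inhibitor of Wnt signaling, and Esrrb, an orphan nuclear receptor (-1.12 to -1.45). Prkd1 itself was at 5.33, 10.9, 6.50 and 7.65 in DCT_CNT against 18.6, 32.1, 20.3 and 25.0 in DCT, and was highest in the control + AAI mouse in both. Of 16 DCT markers 4 were lower, Slc12a3 among them, with a median of -0.85. All 15 genes had a higher mean in DCT than in PT.

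Against CNT, 108 of 4365 genes were higher (2.47%) and 39 were lower (0.893%). Dab2, Ghr, Hnf4aos, Pitpnc1 and Prkd1 led the higher genes, PT genes and a DCT gene. Frmpd4, Egfem1, Phactr1, Cacnb2 and Sdk1 led the lower genes. Phactr1, a regulator of actin and protein phosphatase 1, was at 20.3, 18.7, 20.7 and 22.3 in DCT_CNT, 70.9 to 98.8 in CNT and 21.4 to 32.2 in DCT. Of 14 CNT markers 6 were lower, with a median of -1.05, and 5 of 12 genes of the sodium channel and aldosterone list that passed the minimum were lower, with a median of -0.67. Over all genes the median was -0.01.

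Against the PT mean, 61 of 4203 genes were higher (1.45%) and none was lower by the threshold of 1 (0%), while 32 were lower by at least 0.5 in all 4 mice. Slc8a1 (5.52 to 5.78), Slc12a3 (4.24 to 4.74), Phactr1 (4.01 to 4.24), the transcription factor Mecom (3.74 to 4.06) and Abca13 (2.94 to 4.11) were higher by most. Of 12 DCT markers that passed, 8 were higher, with a median of 1.49. Slc12a3, by which the cluster was chosen, is 1 of the 8 and supports nothing. Of 13 CNT markers 3 were higher, with a median of 0.71. Of 12 WNK and cotransporter regulators 4 were higher. The 43 PT markers had 0 calls either way and a median of -0.53, against -0.03 over all genes. All 61 genes had a mean in DCT or in CNT above that in DCT_CNT.

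These contrasts place the cluster between its neighbours, and the question of a mixture was put to the whole profile. A pool of nuclei from several types has, on this linear scale, the weighted mean of their profiles. The DCT_CNT profile of each mouse was fitted as a sum of the DCT, CNT and PT profiles of that mouse, with weights of at least 0 and no constraint on their sum. The PT weight was 62.0% in control, 55.9% in control + AAI, 58.3% in hKLF6OE and 53.5% in hKLF6OE + AAI, a mean of 57.4 ± 3.61% (SD, n = 4). The DCT weight was 27.7, 30.1, 29.1 and 26.1%, a mean of 28.3 ± 1.72%. The CNT weight was 10.6, 14.02, 13.2 and 20.7%, a mean of 14.6 ± 4.31%, and was the most variable of the 3 relative to its mean. PT thus had the largest weight in every mouse, and within the distal share DCT exceeded CNT in every mouse. With unweighted linear values this distal order was lost in hKLF6OE + AAI, where DCT had 23.2% and CNT 23.3%. Weights are shares of scaled transcripts after averaging over nuclei, and equal shares of nuclei only if the cluster is a pool of nuclei like those of the references.

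**Figure D2:**
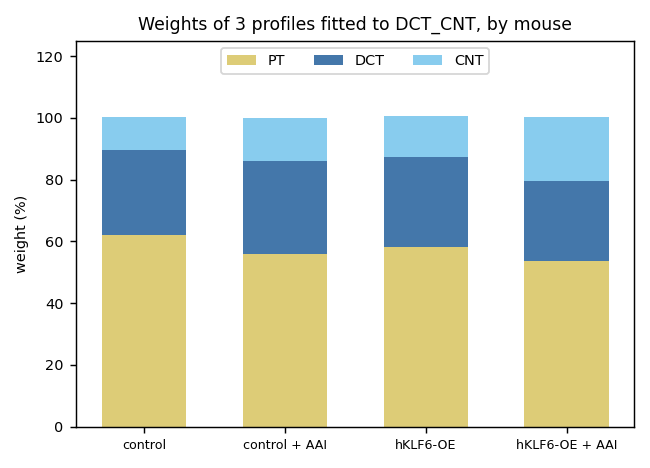
Weights (vertical axis, %, from 0) of the PT, DCT and CNT profiles fitted to DCT_CNT in each of the 4 mice, stacked with no error bars because each bar is 1 mouse. The PT weight is 53.5 to 62.0% and the stacked total is 99.98 to 100.7%. The sum was not constrained, but all profiles are scaled to the same total count. That scaling alone brings the stacked total near this level, so the total is a description and supports nothing.

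The fitted sum came close to the measured profile. It accounted for 98.2, 97.8, 96.7 and 97.3% of the weighted sum of squares over 4802 to 5019 genes, and 6.02 to 8.34% of the scaled counts did not match. Weights fitted on the marker lists alone (70 to 73 genes, Slc12a3 among them) accounted for 96.4 to 98.0% over the genes not used for the fit. Of 4062 genes compared one by one, 99.4 to 99.98% were within 0.5 of the fitted value on the log2(value + 1) scale in each mouse. None was above or below it by 0.5 in all 4 mice. Low genes can hardly differ by 0.5 on this scale, and the weights were fitted on the same profile. No other cluster was measured in this way, so these shares are a description only. When all other 22 clusters were offered as references, the 5 PT clusters together took 51.2 to 60.05%, DCT 26.2 to 30.6% and CNT 8.56 to 20.6%. Both PT-S1-S2 clusters, of the first segments, summed to 21.7 to 29.2%, and the 3 PT-S3 clusters, of the last segment, to 23.7 to 34.9%. The cluster InjuredPT-A took 0% in every mouse and InjuredPT-B at most 1.74%. The other 15 clusters that were not named as references took 0 to 9.69% in all, highest in control + AAI, where principal cells (CD_PC) had 3.94% and the cluster EC-1 3.13%.

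**Figure D3:**
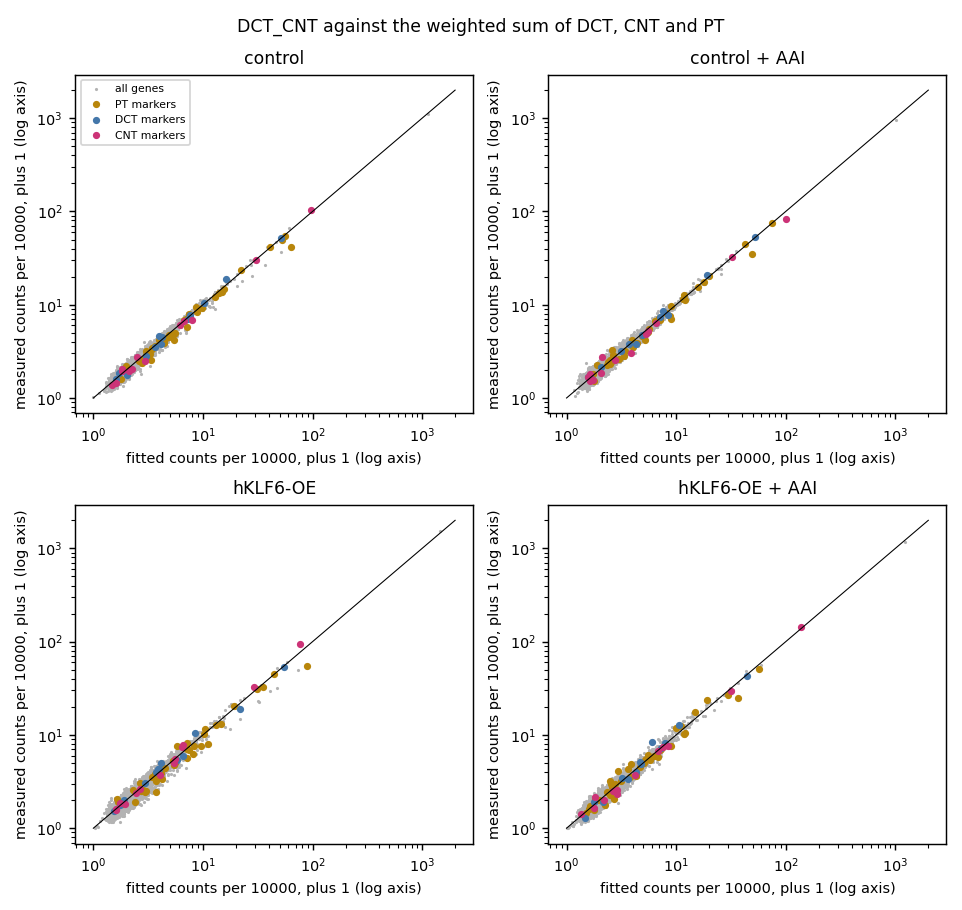
Measured level of each gene in DCT_CNT (vertical axes) against the fitted sum of DCT, CNT and PT (horizontal axes), both in counts per 10000 plus 1 on log axes, with 1 panel per mouse and a line of equality. PT, DCT and CNT markers, in colour, lie along the line in every panel, and the isolated gene at the upper right is Malat1.

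The same 3 profiles were fitted to the other 15 clusters that are not references. They accounted for 79.8 to 88.5% in InjuredPT-B, 59.7 to 78.9% in EC-1, 30.3 to 62.0% in CD_PC and 1.65 to 2.51% in podocytes. Of the 16 clusters DCT_CNT had the smallest mean share of unmatched counts, 7.10%, followed by EC-1 with 10.4%. These references were set for DCT_CNT. When each of the 23 clusters was fitted on its other 22, DCT_CNT ranked 5 with 6.82% unmatched, after EC-1 with 5.48%, PT-S1-S2-2, PT-S3-1 and PT-S3-3. Either ranking is a description, since no replicate of a cluster exists.

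A weighted mean cannot lie outside its parts, so each gene was also placed against the lowest and the highest of DCT, CNT and PT of the same mouse. In DCT_CNT 65.6 to 74.5% of genes lay between these limits, a mean of 70.8 ± 4.10%, compared with 63.1 to 70.9% in EC-1, 53.8 to 55.2% in the ascending limb cluster LH-AL-1 and 23.7 to 25.8% in LH-AL-3. With a margin of 1 on the log2 scale the share in DCT_CNT was 100% in every mouse. That margin set it little apart, since InjuredPT-B then had 99.55 to 99.98% and EC-1 99.03 to 99.55%. Macrophages, the lowest, had 91.1 to 95.9%. In DCT_CNT 18 of 4885 genes were above the highest reference in all 4 mice, and 0 of them by 0.2. The largest such excess was 0.09, for Cul2, a cullin scaffold of ubiquitin ligases, at 1.17, 0.85, 0.73 and 1.08, and for Hmbox1. Gapvd1, Furin, Dctn4, Dcaf8, Aak1, Fbxo42 and Iqsec2 followed. Against all 22 other clusters, DCT_CNT had 0 genes whose level was above that of every other cluster in all 4 mice. PT-S3-1 had 5 such genes, EC-1 had 1, DCT 54, CNT 22 and podocytes 234. No gene was therefore found that marks DCT_CNT on its own.

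In single mice, genes above all references (12.9 to 16.8%) and below all references (12.6 to 17.6%) were about equally frequent, but those below in all 4 mice included many of 2 gene groups. Below the lowest reference in all 4 mice were 56 of 4885 genes (1.15%), but 13 of 48 nuclear genes of oxidative phosphorylation (27.1%) and 9 of 33 cytosolic ribosomal protein genes (27.3%). Kap, the androgen-regulated kidney protein, was the only gene below by 0.2 in all 4. It stood at 40.7, 34.2, 54.0 and 24.0 in DCT_CNT, while DCT had 34.8 to 92.5, CNT 37.7 to 96.0 and PT 35.5 to 84.4. Kap was thus lower in DCT_CNT than in any of the 3 references in each mouse. The summed ribosomal protein genes were at 18.9, 25.2, 27.9 and 20.4 counts per 10000, against fitted sums of 25.5, 29.5, 42.0 and 24.1. All 11 mitochondrially encoded genes that passed the minimum were below the lowest reference in control and in hKLF6OE, 0 of 11 in control + AAI and 4 of 11 in hKLF6OE + AAI. Their sum was 128, 134, 170 and 102, against fitted sums of 175, 119, 247 and 108, so that it was below the fit in 3 mice and above it in control + AAI. Genes outside these groups, among them Fth1, Prdx1, Prdx5 and Tpt1, were also below the lowest reference in all 4 mice. The cause of these departures from a 3-part sum was not tested.

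PT transcripts also occur in the distal reference clusters, as is common in droplet data where free RNA enters every droplet. Here, the summed PT markers were at 20.1 to 36.5% of the PT level in DCT and 21.9 to 39.5% in CNT, and at 60.3 to 66.7% in DCT_CNT. DCT_CNT ranked 5 of 18 clusters that are not normal PT, after both injured PT clusters, EC-1 and the mesangial cluster MC. The spread over genes was narrower than in DCT and CNT. As means over the mice, single PT markers ranged in DCT from 5.91% of the PT level (Cyp7b1, an oxysterol hydroxylase) to 107% (Kap), with a coefficient of variation over the 42 genes of 78.0%. In CNT they ranged from 8.40% (Slc16a9) to 117% (Kap), with a coefficient of 79.6%. In DCT_CNT the range was 55.1% (Cubn) to 95.3% (Slc7a8), and the coefficient was 11.5%, the lowest of the 18 clusters, followed by EC-1 with 18.1%.

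Cyp7b1 was at 3.22, 7.15, 6.63 and 6.54 counts per 10000 in DCT_CNT, 0.38 to 0.68 in DCT and 6.78 to 14.1 in PT. It was at 5.91% of PT in DCT but at 59.1% in DCT_CNT. Slc16a9, a carnitine transporter, was at 6.44% in DCT and 57.0% in DCT_CNT, and Cubn at 8.24% and 55.1%. Of 42 PT markers 22 were below 20% of PT in DCT and 0 in DCT_CNT. Kap went the other way, at 107% of PT in DCT and 68.8% in DCT_CNT.

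**Figure D4:**
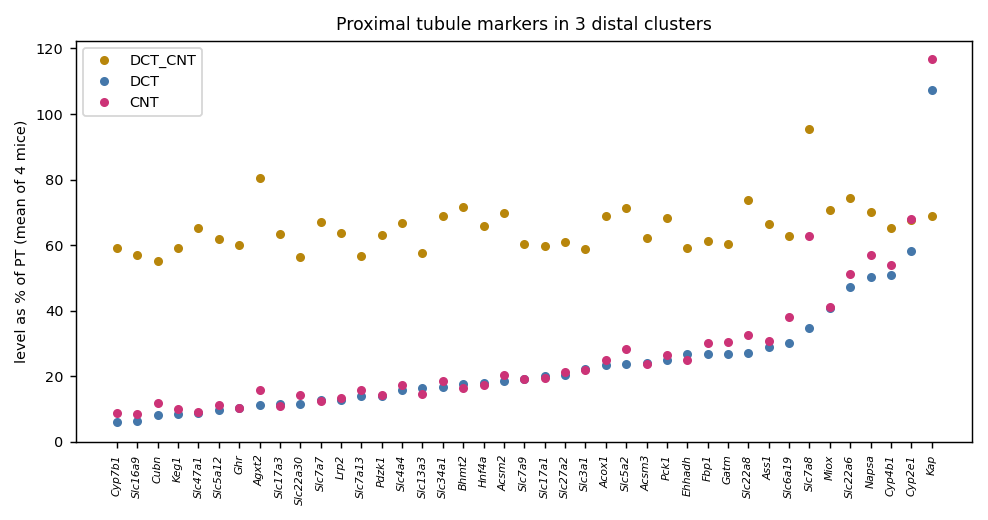
Level of PT markers (horizontal axis, ordered by their level in DCT) in DCT_CNT, DCT and CNT, as a percentage of the PT level of the same mouse (vertical axis, from 0), with each point the mean of 4 mice. DCT climbs from 5.91 to 107% and CNT from 8.40 to 117% across the genes, whereas DCT_CNT stays between 55.1 and 95.3%.

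The median PT marker was at 68.0, 61.2, 65.7 and 62.2% of PT in the 4 mice, a mean of 64.3 ± 3.13%, and at 54.7% when the DCT level was first subtracted from both. The same ratio of DCT markers to the DCT level had medians of 35.6, 41.1, 46.2 and 45.4% over 14 genes, Slc12a3 among them. That of CNT markers to CNT was 33.3, 28.6, 41.0 and 38.1% over 13 genes. Both were above the fitted weights, and both lists hold genes that the other references also express. Kcnj16, a basolateral potassium channel subunit and the highest of the DCT list, was at 87.3 to 123% of DCT, with a mean level of 6.07 in DCT, 6.91 in CNT and 6.60 in PT. Of genes that PT nearly lacks, Trpm6 was at 28.5 to 43.5% of DCT, while Scnn1b and Scnn1g, both ENaC subunits, were at 12.2 to 28.1% and 13.9 to 21.1% of CNT. The fitted weights were 26.1 to 30.1% for DCT and 10.6 to 20.7% for CNT.

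By these measures DCT_CNT looked like a mixture with mean weights of 57.4% PT, 28.3% DCT and 14.6% CNT. Exceptions included Kap, mitochondrial and ribosomal genes, and genes outside these groups such as Fth1 and Prdx1. A pool of separate PT and distal nuclei, droplets that hold nuclei of both types, and free RNA cannot be told apart in averages over nuclei. The study's methods mention doublet removal only for its chromatin libraries. The part of each in these values was not tested.

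With AAI, the change was compared within each genotype, control + AAI against control and hKLF6OE + AAI against hKLF6OE, which share no mouse. A gene was counted when its log2 difference was at least 0.5 the same way in both. Of 3992 genes in DCT_CNT, 30 were higher (0.752%), 40 were lower (1%) and 3 went opposite ways by as much (0.0752%). Without mice to repeat a group, differences between single mice and the effect of AAI cannot be told apart.

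Some targets of p53, the transcription factor that DNA damage activates, were higher with AAI. Of 30 targets listed 7 passed the minimum, which the larger value of each pair had to reach. Of these, 4 were higher in both pairs and 0 lower, with medians of 0.88 and 0.53. Over all genes the medians were 0.02 and 0.05. Ccng1, Trp53inp1 and Gdf15 were under 0.5 in both untreated mice and passed only through the treated ones. The filter thus favoured rises, and the count and medians are a description only. Mdm2, the ubiquitin ligase that degrades p53, was at 1.08 and 3.32 counts per 10000 in control and control + AAI, and at 0.53 and 2.52 in hKLF6OE and hKLF6OE + AAI. Both treated mice were above both untreated mice. Ccng1, cyclin G1, went from 0.18 to 1.19 and from 0.21 to 1.02, Trp53inp1 from 0.32 to 1.80 and from 0.39 to 1.02, and the stress cytokine Gdf15 from 0.12 to 1.06 and from 0.04 to 0.60. Cdkn1a, the cell cycle inhibitor p21, was listed at 0 in both untreated mice and at 0.25 and 0.26 in the treated ones, under the minimum. Summed over the 30 targets the level was 5.10 and 15.5 in the control genotype and 5.99 and 13.1 in hKLF6OE, where the fitted mixture had 5.95, 15.8, 6.23 and 15.5. In the references, which come from the same mice, the sum was 6.45, 10.9, 6.75 and 10.5 in DCT and 5.47, 19.7, 5.99 and 19.9 in PT.

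Other genes higher with AAI were led by Gramd1b, a sterol transfer protein, at 8.12 and 19.3 in the control genotype and 8.81 and 22.1 in hKLF6OE, log2 differences of 1.15 and 1.23. In PT its differences were 1.14 and 1.36 and in DCT 0.08 and 0.21. Gria3, a glutamate receptor subunit (0.99 and 1.38), Exoc4 of the exocyst (0.81 and 1.05), the DNA repair enzyme Mgmt (0.77 and 1.15), the stress kinase Map3k20 (0.80 and 0.76) and the growth factor receptor Egfr (0.74 and 0.92) followed. Mgmt was at 0.21 and 0.28 and Map3k20 at 0.24 and 0.40 in the untreated mice, under the minimum of 0.5. Both passed only through the treated mice, so their rises are a description only. Egfem1 differed from the other genes named here in where it was expressed. It was at 1.48, 3.71, 0.30 and 1.78 in DCT_CNT, at 4.20 to 22.5 in CNT and at most 0.05 in PT, with differences of 0.93 and 1.10 in DCT_CNT, 0.51 and 1.04 in CNT, with -0.02 and 0.04 in PT.

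Of the genes lower with AAI, Gm42397, an unnamed gene model, had the largest change, -2.19 and -2.39, from 7.82 to 0.93 and from 6.98 to 0.52. Lpl, lipoprotein lipase, went from 3.61 to 0.80 and from 2.69 to 0.37 (-1.36 and -1.43). Rhobtb1 (-1.13 and -1.12), Cntnap5a (-1.56 and -1.16) and Ndrg1, a stress-responsive gene (-1.10 and -1.13), came next. Ndrg1 had differences of -0.99 and -1.04 in DCT, -0.69 and -0.88 in CNT and -1.12 and -1.31 in PT, so that it was lower in all 4. Miox, the inositol oxygenase of PT, went from 6.27 to 2.81 and from 5.22 to 1.77, and Slc22a12, the urate carrier, from 1.34 to 0.24 and from 1.30 to 0.18. Cntnap5a went from 2.11 to 0.05 and from 1.44 to 0.09. Cntnap5a and Slc22a12 were under 0.5 in both treated mice and passed only through the untreated ones. Defb1, a beta-defensin of the distal nephron, went from 4.65 to 1.44 and from 3.95 to 1.56 (-1.21 and -0.95). Its differences were -1.51 and -0.98 in DCT and -0.02 and -0.28 in PT.

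**Figure D5:**
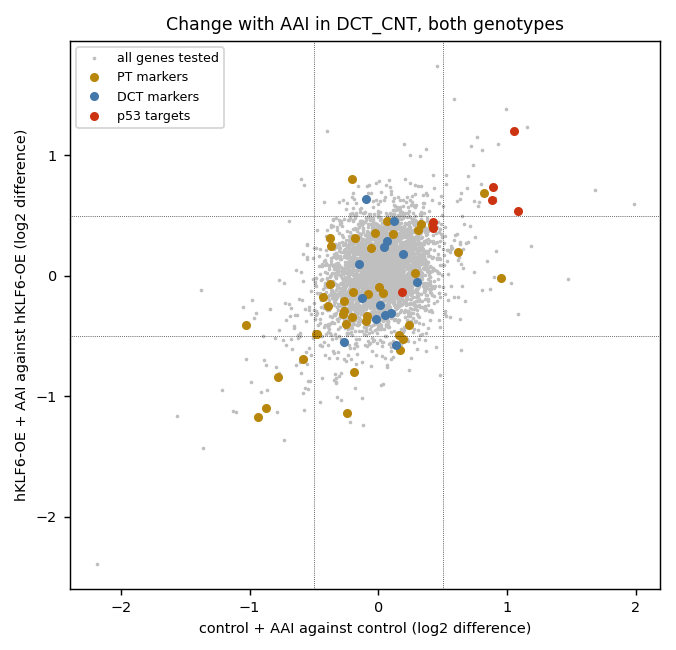
Log2 difference with AAI in DCT_CNT in the control genotype (horizontal axis) and in hKLF6OE (vertical axis), 1 point per gene of 3992, with dotted lines at 0.5 and -0.5. Of the p53 targets in red 4 lie beyond 0.5 on both axes, and none of the DCT markers in blue passes on both.

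The segment markers gave few calls, beside 0.752% higher and 1% lower over all genes. Of 42 PT markers 1 was higher, Cubn (0.82 and 0.69), and 4 were lower: Miox, Ehhadh, a peroxisomal fatty acid oxidation enzyme (-0.88 and -1.09), Ass1, argininosuccinate synthase (-0.78 and -0.84), and Acsm2 (-0.59 and -0.69). The PT list had medians of -0.19 and -0.19, against 0.02 and 0.05 over all genes. Of 14 DCT and 13 CNT markers 0 passed in both pairs. The same was true of 13 WNK and cotransporter regulators, 13 calcium and magnesium genes and 12 sodium channel and aldosterone genes. With lists this short, 0 calls does not set them apart from other genes. Of 21 tubular injury genes 4 passed the minimum, of which 1 was higher and 0 lower, with medians of 0.46 and -0.03. The higher gene was Cxcl1, a neutrophil chemokine (0.53 and 0.84). Of 14 immediate early genes only 2 passed, of which 1 was higher, Egr1 (0.72 and 1.08), and 0 lower. Havcr1, the injury marker KIM-1, was at 0, 0.015, 0 and 0.

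For the 30 higher genes the median differences were 0.31 and 0.31 in DCT, 0.25 and 0.30 in CNT, and 0.88 and 0.92 in PT. For the 40 lower genes they were -0.22 and -0.32 in DCT, -0.28 and -0.45 in CNT, and -0.69 and -0.74 in PT. The fitted sum, which gives each mouse its own weights, had medians of 0.72 and 0.76 for the higher and -0.66 and -0.68 for the lower genes. These genes were chosen in DCT_CNT and the clusters come from the same 4 mice, so the medians are set side by side only. The PT weight was 6.08 percentage points lower with AAI in the control genotype and 4.78 lower in hKLF6OE. The CNT weight was 7.50 points higher with AAI in hKLF6OE. In the control genotype it was 3.43 points higher, but this direction turned in 4 of the 7 alternative fits. With AAI it was then 8.45% against 11.09% with unweighted linear values, 6.66% against 9.01% with marker genes only, 8.56% against 10.997% with 22 references and 9.15% against 9.40% with CD_PC added.

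Between genotypes, hKLF6OE was compared with control without AAI and with AAI. Mouse Klf6 was at 0.29, 0.43, 0.16 and 0.13 in DCT_CNT, and the human transgene has no row, so the genotype could not be checked on it. Of 3859 genes 1 was higher in both pairs (0.0259%), 9 were lower (0.233%) and 7 went opposite ways (0.181%), so that calls in 1 direction were about as frequent as opposite ones. Pck1, the rate-limiting enzyme of gluconeogenesis, was the higher gene, at 3.15 and 6.61 without AAI and 3.16 and 6.14 with AAI (0.87 and 0.78). Both hKLF6OE mice were above both control mice. Its differences were 0.93 and 0.73 in DCT, 1.00 and 0.79 in CNT and 1.10 and 0.93 in PT.

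The 9 lower genes were Ehhadh (-0.89 and -1.10), Egfem1 (-0.93 and -0.76), Clec2h (-1.35 and -0.74), Keg1 (-0.73 and -0.75), Trabd2b, an inhibitor of Wnt ligands (-1.03 and -0.61), Slc17a3, a urate and phosphate carrier (-0.59 and -0.85), Rgl1, Rtl4 and Ipmk. The last 3 fall outside the 6 genes of each direction that were to be named, and are given to complete the count. Keg1 was at 53.4 and 31.9 without AAI and 44.1 and 25.9 with AAI. Ehhadh was at 5.92 and 2.74 without AAI and 2.77 and 0.75 with AAI. Trabd2b differed by -1.13 and -0.71 in DCT, -1.02 and -0.84 in CNT and -0.85 and -0.21 in PT. Of 42 PT markers 1 was higher and 3 were lower, with medians of -0.16 and -0.18 against -0.04 and -0.01 over all genes. Of the DCT and the CNT markers, 13 each, 0 passed in both pairs, and the CNT list had medians of 0.13 and 0.27.

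The mitochondrially encoded genes had a median of 0.34 without AAI and -0.38 with AAI, and the corresponding medians in PT were 0.47 and -0.06. Nuclear genes of oxidative phosphorylation had 0.24 and 0.01, and ribosomal protein genes 0.22 and -0.00. In these lists 0 genes passed in both pairs. With AAI against none, the mitochondrially encoded genes had medians of 0.09 and -0.57 in DCT_CNT, compared with -0.39 and -0.92 in DCT, -0.59 and -0.93 in CNT and -0.39 and -1.06 in PT.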

How the data were processed

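Kidney cortex nuclei of 4 mice were profiled, 1 mouse per group. The authors counted reads on a pre-mRNA reference and clustered nuclei. The submitters' processing notes name Cell Ranger, Seurat and mm10, without versions. The deposited signal values are linear cluster means per mouse, made by the authors from nuclei scaled to 10000 counts each. All 92 columns (23 clusters, 4 mice) sum to 10000. Depth and nuclei per column are unknown, and counting error could not be estimated.

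The table has 19632 genes, of which 23 whose symbols a spreadsheet had turned into dates were dropped. Differences used log2(value + 1) and genes of at least 0.5, with a threshold of 1 between clusters in all 4 mice and 0.5 between conditions in both pairs. Fold changes on this scale are understated for low genes. PT is the unweighted mean of 5 normal PT clusters. Weights came from non-negative least squares, each gene divided by the square root of its mean over the references. No test was made, since groups hold 1 mouse and clusters were defined from these values. The cluster, the 21 gene lists and the comparisons were chosen with earlier results of these data known. Named genes were list members, the 10 largest differences each way against DCT, 5 each against CNT and PT, the 10 largest above all references, 8 each way with AAI, 6 each way with genotype, and up to 10 genes of highest mean; a few that met these rules are not reported here. Alternatives were a pseudocount of 0.1, other minimums and thresholds, leaving out each mouse, median centring, and other references or genes for the fit. A margin of 1 and injured PT clusters as references were added after seeing the data. Coordinates are from GENCODE for GRCm38. Scripts were tested on simulated data. Versions were Python 3.11.15 with scipy 1.17.1, numpy 2.4.6, matplotlib 3.10.9 and pandas 2.3.3.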

Additional observations from a re-analysis of the deposited data

Results flagged for a closer look

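Some genes of DCT_CNT moved by at least 0.5 on the log2 scale in opposite directions in the pairs of mice. Each pair is 1 mouse against 1 mouse, and the difference between pairs was not tested. With AAI these were Col27a1 (-0.57 in the control genotype and 0.75 in hKLF6OE), Fth1, ferritin heavy chain (0.64 and -0.61), and Itgb6, an integrin subunit (-0.60 and 0.80).

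Between genotypes, hKLF6OE against control, they were Chd9 (0.65 without AAI and -0.73 with AAI), Fth1 (0.72 and -0.54), Itgb6 (-0.90 and 0.51), Rnf24 (0.81 and -0.69), the ribosomal protein gene Rpl19 (0.67 and -0.64, on levels of 0.21 to 1.14 counts per 10000), Slc16a14 (-0.77 and 0.83) and mt-Atp6 (0.53 and -0.59). Fth1 was at 7.98, 13.002, 13.8 and 8.65 in control, control + AAI, hKLF6OE and hKLF6OE + AAI, so that both comparisons rest on the same 4 values. Itgb6 was at 3.63, 2.06, 1.49 and 3.35 in DCT_CNT and at 4.51, 2.79, 1.73 and 5.21 in PT.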

How the results depend on the processing

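Clusters were compared within each mouse, but no paired analysis between conditions was possible because each group has 1 mouse. No test was made. Genes higher and lower in DCT_CNT numbered 350 and 59 against DCT, 309 and 121 against CNT and 185 and 0 against PT with a pseudocount of 0.1, and 329 and 107, 300 and 140, and 159 and 32 with a threshold of 0.5. With the 3 PT-S3 clusters as PT, 6 genes were lower than PT. Leaving out 1 mouse gave 120 to 132 higher and 15 to 24 lower genes against DCT, 111 to 128 and 40 to 48 against CNT, and 63 to 68 and 0 against PT.

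Genes higher and lower with AAI numbered 129 and 134 with a pseudocount of 0.1, 307 and 237 at a threshold of 0.2, 2 and 5 at 1, and 17 higher at a minimum value of 2. Those of genotype numbered 35 and 74, 85 and 174, and 0 and 0, with 5 lower at the minimum of 2. Opposite-way genes rose alike at the lower threshold, to 198 for AAI and 242 for genotype.

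With the 3 PT-S3 clusters the weights were 53.3% PT and 30.1% DCT. The other 6 alternatives of the fit moved each mean weight by less than its SD over mice, but 4 of the 7 turned the CNT change with AAI in the control genotype, from higher to lower. Genes between the references were 97.1% with a margin of 0.2, 100% with a margin of 1, 85.5% at a minimum of 2, 85.0% with the 5 PT clusters taken singly and 81.7% with both injured PT clusters added. The PT marker ratio was 54.7% with the DCT value subtracted. Of 81 recomputed differences of single named genes 0 reversed. Of these, 52 moved in size by at least their SD over the mice or pairs, and 29 moved by less. Unknown depth, low genes and 1 mouse per group limit every value.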
